A study of Mus musculus with 3 samples.

Results

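The dual-specificity phosphatases *Dusp1*, *Dusp4*, *Dusp5*, *Dusp6* and *Dusp10*, the Sprouty genes *Spry1*, *Spry2* and *Spry4*, and the Sprouty-related genes *Spred1* and *Spred2* were examined in scRNA-seq data of the mouse ovary. These 10 genes were chosen by name, with earlier results of these data known. They are 10 of the 24958 gene rows of 1 deposited table, and all 10 had UMIs (unique molecular identifiers, each standing for 1 captured transcript). The labels describe 3 libraries of whole ovary prepared with 10x Genomics chemistry. They were taken 0, 1 and 6 h after hCG (human chorionic gonadotropin, which acts on the LH receptor and starts ovulation), with 1 library per time point. The labels name no strain, age, genotype or earlier hormone for them, whereas the methods of the study describe 21-day-old Kunming mice 48 h after PMSG (pregnant mare serum gonadotropin, which has FSH activity), and this wording matches the 0 h library alone. Cell barcodes in the table end in 1, 2 or 3, and no source used here ties an ending to a library, so the cells are given below as barcode sets 1, 2 and 3, with no time point.

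The ERK (extracellular signal-regulated kinase) cascade carries signals from growth factor receptors through Ras, Raf and MEK to the nucleus, and several of its target genes encode proteins that switch it off. Nuclear phosphatases such as DUSP1, DUSP4 and DUSP5 and the cytoplasmic DUSP6 remove the activating phosphates of MAP kinases, DUSP10 acts mainly on p38 and JNK, and Sprouty and Spred proteins restrain signalling at the level of Ras and Raf. In the ovulating follicle, LH raises cAMP in granulosa cells (GCs), which release the EGF-like ligands AREG, EREG and BTC, and EGF receptor signalling to ERK is then needed for cumulus expansion and luteinization.

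The table held 31776 cells and 240030587 UMIs, with a median of 6093, 6352 and 6524 UMIs per cell in sets 1, 2 and 3. A level below is a gene's UMIs per 10000 UMIs in a cell, averaged over cells, and the interval after it is a 95% Poisson interval of the summed UMIs, rescaled to that level. With no replicate library, no test was run, and all intervals cover counting error only and treat cells of unequal depth as alike, which makes them somewhat too narrow. Cells were gated by marker genes into 6 classes with at least 50 cells in every set, namely 12025 granulosa-like, 10030 stroma-like, 1894 theca/interstitial-like, 1628 endothelial-like, 467 mural/smooth muscle-like and 344 myeloid-like cells. In every class and set, 1 to 7 of the 10 leading genes were markers of that class and 0 were markers of another class, the lowest number being that of the theca/interstitial-like cells of set 3. Cells were placed by these same marker lists, so these numbers follow in part from the gate and do not test the class names. The 5299 ungated cells enter only the values over all cells. As a guide to free RNA, the GC gene *Inha* reached 2.58 to 5.39% of its granulosa-like level in the stroma-like, mural, endothelial-like and myeloid-like cells, and the myeloid gene *Tyrobp* reached at most 0.216% of its myeloid-like level elsewhere. Other markers reached more of the level of their highest class, with *Acta2* at 12.9% in stroma-like cells of set 2, *Dcn* at 8.34% in mural cells of set 3 and *Pecam1* at 7.48% in myeloid-like cells of set 3. *Myh11* reached at most 4.34%, *Cyp17a1* 0.891% and *Rgs5* 0.223%. In theca/interstitial-like cells of sets 1, 2 and 3, *Inha* reached 17.1, 20.8 and 39.9%. All of these genes are markers of the gate, which leaves out cells high in another marker list, so the low shares follow in part from the gate. Barcodes shared by 2 sets numbered 112.

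Promoter sequence was available from RefSeq for 8 of the 10 genes (GRCm38.p6, the build of the mm10 data), and the 250 bases before the start site were searched on both strands. A full cAMP response element (CRE, TGACGTCA) was found in 1.55% of all 32851 promoters and, among these genes, in *Dusp1* alone. The shorter CRE core TGACG, which the full element also holds, was found in 17.8% of all promoters and in *Dusp1*, *Dusp5* and *Spred2*. A CArG box, the element bound by SRF, was found in 1.47% of all promoters and at 2 adjoining places in *Dusp5*, whereas the AP-1 motif TGANTCA (6.75% of all promoters) was found in 0 of the 8 and the ETS core GGAA (93.4%) in 6 of the 8. The first 200 of these bases are shown for *Dusp1*, *Dusp5* and *Spry2*, which are among the genes that differed between classes or barcode sets below, 5′ to 3′ on the strand of the gene, with the CRE, its core and the CArG boxes in capitals. The *Dusp1* window lies on the minus strand at chr17:26508523-26508722, the *Dusp5* window on the plus strand at chr19:53528895-53529094 and the *Spry2* window on the minus strand at chr14:105896870-105897069, and the last of them holds no CRE, CRE core or CArG box. The core reads CGTCA where it lies on the other strand, as in *Dusp5*.
Dusp1: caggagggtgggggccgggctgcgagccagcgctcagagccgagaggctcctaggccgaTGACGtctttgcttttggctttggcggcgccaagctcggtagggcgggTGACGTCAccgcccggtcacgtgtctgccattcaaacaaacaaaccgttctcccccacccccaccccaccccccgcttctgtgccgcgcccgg
Dusp5: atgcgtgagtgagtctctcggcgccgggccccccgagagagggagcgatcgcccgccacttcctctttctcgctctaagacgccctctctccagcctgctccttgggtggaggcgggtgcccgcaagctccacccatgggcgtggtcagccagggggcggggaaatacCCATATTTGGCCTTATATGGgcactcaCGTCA
Spry2: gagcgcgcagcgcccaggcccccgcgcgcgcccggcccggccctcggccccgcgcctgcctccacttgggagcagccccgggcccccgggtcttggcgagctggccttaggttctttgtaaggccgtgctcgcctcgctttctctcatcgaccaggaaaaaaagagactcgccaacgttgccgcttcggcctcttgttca
In the GENCODE annotation an exon of an antisense gene covers the *Dusp5* window and the start of *Dusp5*, and the sources used here do not say whether reads were counted by strand, so *Dusp5* reads cannot be told apart from that gene with certainty. The *Dusp5* gene spans chr19:53529109-53542431, *Dusp6* spans chr10:99263231-99267489 and *Spry2* spans chr14:105891947-105896819. *Dusp4* lies at chr8:34807297-34819894, *Dusp10* at chr1:184013302-184075636, *Spry1* at chr3:37639947-37644598, *Spred1* at chr2:117121374-117182279 and *Spred2* at chr11:19924375-20024026. *Dusp1* is annotated at chr17:26505590-26562128, a span of 56.5 kb whose far end lies 53.7 kb before the start at position 26508472 that the window shown belongs to. Of the 6 annotated *Dusp1* transcripts, 3 start within 100 bases of that position.

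**Figure D1:**
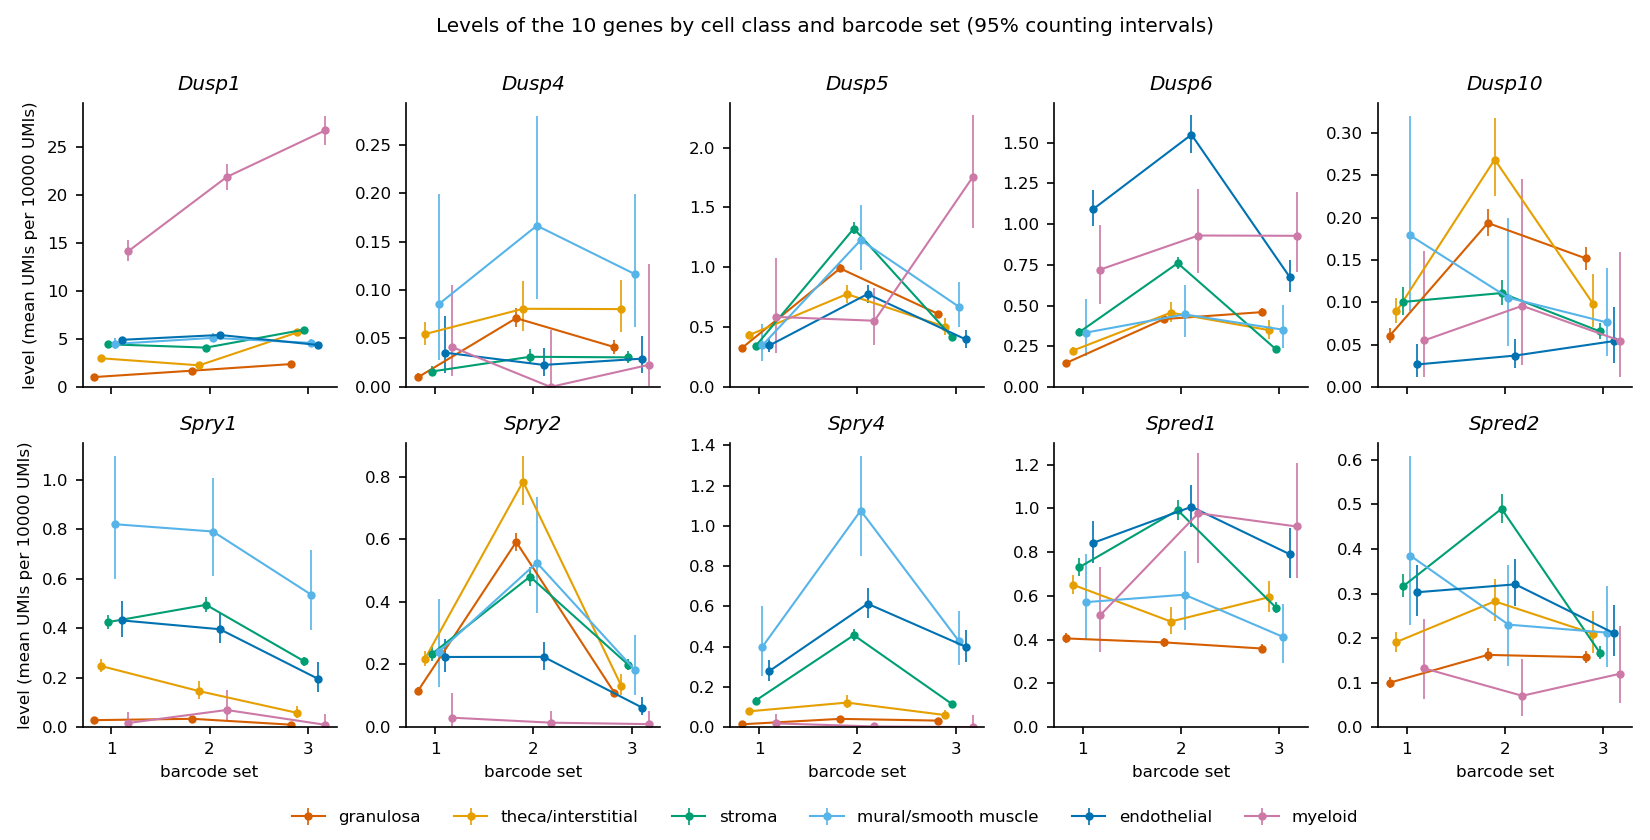
Level of each gene (mean UMIs per 10000 UMIs, vertical axis from 0, a scale of its own for each gene) by barcode set (horizontal axis) and cell class (colour), with 95% counting intervals. Lines join the sets of 1 class and stand for no order in time. Myeloid-like cells stand far above the rest for *Dusp1*, endothelial-like cells lead for *Dusp6* in sets 1 and 2, mural cells lead for *Spry1* and *Spry4*, and most classes peak in set 2 for *Dusp5*, *Spry2* and *Spry4*.

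*Dusp1*, the immediate-early phosphatase that inactivates p38, JNK and ERK, was highest in myeloid-like cells and lowest in granulosa-like cells in all 3 sets. Myeloid-like cells of sets 1, 2 and 3 had levels of 14.1 (13.1 to 15.3), 21.8 (20.5 to 23.2) and 26.7 (25.2 to 28.2). In granulosa-like cells it was 1.03 (0.994 to 1.06), 1.69 (1.65 to 1.74) and 2.38 (2.32 to 2.43), so that the myeloid-like level was 13.8, 12.9 and 11.2 times higher. The 4 other classes lay between these 2, with levels from 2.25 to 5.96, and in set 1 the mural level overlapped with both the endothelial-like and the stroma-like level. In both myeloid-like and granulosa-like cells the intervals of the 3 sets did not overlap, set 3 being the highest. The myeloid-like cells of set 3 were shallower than those of sets 1 and 2, at a median of 3498 against 4932 and 4899 UMIs. Theca/interstitial-like cells had the lowest level in set 2, at 2.25 (2.12 to 2.38), against 2.98 in set 1 and 5.68 in set 3. Their ratio of set 2 over set 1 was 0.753, but 1.02 when cells were classed by clustering. After every cell had been thinned to 3000 UMIs, a *Dusp1* UMI was found in 21.3, 31.9 and 39.4% of the granulosa-like cells of sets 1, 2 and 3 and in 77.6, 83.0 and 92.9% of the myeloid-like cells. Thinning left out 254, 191 and 147 granulosa-like and 23, 31 and 51 myeloid-like cells, and without it the shares were 34.9, 49.2 and 61.5% and 74.4, 84.0 and 92.6%.

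*Dusp4* and *Dusp5*, which encode the other nuclear phosphatases here, were both lower in set 1 than in set 2 in granulosa-like cells. *Dusp4* was sparse there, with levels of 0.00997 (27 UMIs), 0.0709 (210 UMIs) and 0.0411 (128 UMIs), which put set 2 at 7.12 times (4.75 to 11.1) set 1. In the other classes *Dusp4* ranged up to 0.166 in the mural cells of set 2, where it rested on 14 UMIs, and in myeloid-like cells it had at most 4 UMIs in a set. *Dusp5*, which dephosphorylates ERK in particular, was spread more evenly over the classes than *Dusp1*. In set 1 the neighbouring classes in the order of its levels all had overlapping intervals, from 0.325 (0.305 to 0.345) in granulosa-like to 0.585 (0.281 to 1.08) in myeloid-like cells, although the theca/interstitial-like level of 0.432 (0.399 to 0.467) lay above the granulosa-like and stroma-like levels. In set 2 its level was 1.32 (1.27 to 1.37) in stroma-like, 1.23 in mural, 0.991 (0.956 to 1.03) in granulosa-like, 0.776 in endothelial-like, 0.776 in theca/interstitial-like and 0.553 in myeloid-like cells. In set 3 the myeloid-like cells stood apart at 1.75 (1.33 to 2.27), and the other classes lay between 0.397 and 0.670. Set 2 therefore held the highest *Dusp5* level of the 3 sets in 5 classes, and set 3 held it in myeloid-like cells. Part of the myeloid-like values rest on few cells, 90 in set 1, 119 in set 2 and 135 in set 3. The *Dusp5* levels of myeloid-like cells in sets 1 and 3 rest on 10 and 57 UMIs. Pooled over all cells of the class, 3 UMIs stand for a level of 0.0585 and 0.0491 there. Both levels thus lie above their pooled values, as cells of few UMIs weigh as much as others in a mean. That myeloid-like cells were highest in set 1 hangs on this weighting.

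*Dusp6*, the cytoplasmic ERK phosphatase whose transcript is widely read as a sign of ERK activity, was highest in endothelial-like cells of sets 1 and 2. Its endothelial-like level was 1.09 (0.986 to 1.21), 1.55 (1.44 to 1.67) and 0.675 (0.581 to 0.779) in sets 1, 2 and 3. It overlapped with the myeloid-like level of 0.721 (0.507 to 0.993) in set 1 and of 0.928 (0.707 to 1.2) in set 3. Granulosa-like cells had 0.146 (0.133 to 0.160), 0.417 (0.394 to 0.440) and 0.460 (0.437 to 0.483), with set 1 clearly below both other sets. Stroma-like cells had 0.337, 0.760 and 0.231, so that the set with the lowest level was set 3 in stroma-like and set 1 in granulosa-like cells. The order of these classes turned accordingly, the stroma-like level being 2.31 times (2.05 to 2.60) that of granulosa-like cells in set 1, 1.82 times (1.69 to 1.97) in set 2 and 0.503 times (0.460 to 0.550) in set 3. *Dusp10*, whose product acts on p38 and JNK, was highest in theca/interstitial-like cells of set 2, at 0.269 (0.225 to 0.318), against 0.0892 in set 1 and 0.0985 in set 3. In granulosa-like cells *Dusp10* was at 0.0602, 0.194 and 0.152, and in endothelial-like cells it rested on 9 to 21 UMIs in a set.

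*Spry1* and *Spry4*, which encode inhibitors induced by receptor tyrosine kinases, had their highest levels in mural/smooth muscle-like cells in every set, although the *Spry4* levels of endothelial-like cells overlapped with them in sets 1 and 3. *Spry1* was at 0.821 (0.601 to 1.09), 0.791 (0.611 to 1.01) and 0.536 (0.392 to 0.715) there, and at 0.0281, 0.0335 and 0.00983 in granulosa-like cells. Stroma-like cells had 0.425, 0.495 and 0.266 and endothelial-like cells 0.432, 0.396 and 0.195. Of all 4326 *Spry1* UMIs in the table, 63.6% came from stroma-like cells, which held 27.7% of the UMIs of all genes, and 4.92% came from granulosa-like cells, which held 39.3%. *Spry4* was at 0.399 (0.253 to 0.599), 1.08 (0.849 to 1.34) and 0.427 (0.309 to 0.575) in mural cells, and set 2 did not overlap with the others. Its stroma-like level showed the same peak, with 0.132, 0.457 and 0.114, while the much lower granulosa-like level was 0.0140, 0.0408 and 0.0321, with overlapping intervals in sets 2 and 3. The mural gate was the least certain of the 6, since 46.0% of its cells lay in a cluster of the same name when cells were clustered instead, and no such cluster was found in set 3.

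*Spry2* differed from both in that theca/interstitial-like and granulosa-like cells held its highest levels in set 2, the mural level overlapping with both. In granulosa-like cells *Spry2* was at 0.116 (0.103 to 0.129), 0.591 (0.563 to 0.620) and 0.109 (0.0983 to 0.122), so that sets 1 and 3 overlapped and set 2 was 5.12 times (4.55 to 5.77) set 1. In theca/interstitial-like cells it was at 0.217, 0.784 and 0.131, and in stroma-like cells at 0.233, 0.480 and 0.199. Endothelial-like cells had 0.224, 0.224 and 0.0625, with no higher level in set 2. Myeloid-like cells held 1 or 2 *Spry2* UMIs in a set. A *Spry2* UMI was found in 3.14, 15.2 and 3.25% of the granulosa-like cells thinned to 3000 UMIs (7.25, 27.8 and 7.85% without thinning) and in 1.49, 1.14 and 1.19% of the myeloid-like cells (2.22, 1.68 and 0.741%), each of the thinned myeloid-like shares being 1 cell.

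*Spred1* and *Spred2*, which encode membrane-bound partners of neurofibromin that restrain Ras, differed less from set to set in granulosa-like cells, *Spred1* least. *Spred1* in granulosa-like cells was at 0.405 (0.383 to 0.429), 0.387 (0.366 to 0.409) and 0.359 (0.339 to 0.380), the lowest of the 6 classes in every set. Endothelial-like cells had 0.842, 1.01 and 0.790 and stroma-like cells 0.731, 0.992 and 0.546. Myeloid-like cells had 0.511 (0.342 to 0.734) in set 1 and 0.978 (0.751 to 1.25) and 0.917 (0.683 to 1.21) in sets 2 and 3, so that set 1 lay below set 2. *Spred2* was at 0.317, 0.490 and 0.167 in stroma-like cells and at 0.0996, 0.162 and 0.157 in granulosa-like cells. The stroma-like level of *Spred2* was thus 3.18 times (2.75 to 3.68) the granulosa-like level in set 1 and did not separate from it in set 3, at 1.06 times (0.939 to 1.21).

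Across classes, 7 of the 10 genes had their lowest level in granulosa-like cells in set 1, 4 in set 2 and 2 in set 3. Among all genes with at least 100 UMIs over the 6 classes of a set, 6.54% were lowest in granulosa-like cells in set 1, 9.76% in set 2 and 5.93% in set 3. The 7 genes of set 1 were *Dusp1*, *Dusp4*, *Dusp5*, *Dusp6*, *Spry4*, *Spred1* and *Spred2*, and for 5 of them, all but *Dusp1* and *Dusp6*, the next class in order overlapped. Granulosa-like cells were the highest class for 0 of the 10 genes in set 1, 0 in set 2 and 1 in set 3 (*Dusp10*), against 23.9, 15.6 and 25.1% of all genes. The values for the single classes stand in the plot of levels by class.

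Between the barcode sets, a gene was counted as higher or lower from a fold of 2 in level, among genes with at least 100 UMIs in the 2 sets together. Over all cells, 5 of the 10 genes were at least 2-fold higher in set 2 than in set 1, namely *Spry4* (3.22, 2.94 to 3.53), *Dusp5* (2.97, 2.85 to 3.10), *Spry2* (2.90, 2.72 to 3.09), *Dusp4* (2.64, 2.24 to 3.11) and *Dusp6* (2.16, 2.05 to 2.27), against 4.8% of all 14413 genes. In set 3, 2 of the 10 were at least 2-fold lower than in set 2, *Spry2* (ratio 0.285) and *Spry4* (0.342), against 9.5% of all genes, and *Dusp5* lay at the edge with 0.502. Between sets 3 and 1, 0 of the 10 passed the fold in either direction, against 6.45% of all genes higher and 13.5% lower in set 3. The median log2 ratio of set 2 over set 1 was 0.95 for the 10 genes and -0.28 for all genes, and that of set 3 over set 2 was -0.81 for the 10 and 0.09 for all. The comparisons share set 2 or set 1 and are not independent of each other.

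**Figure D2:**
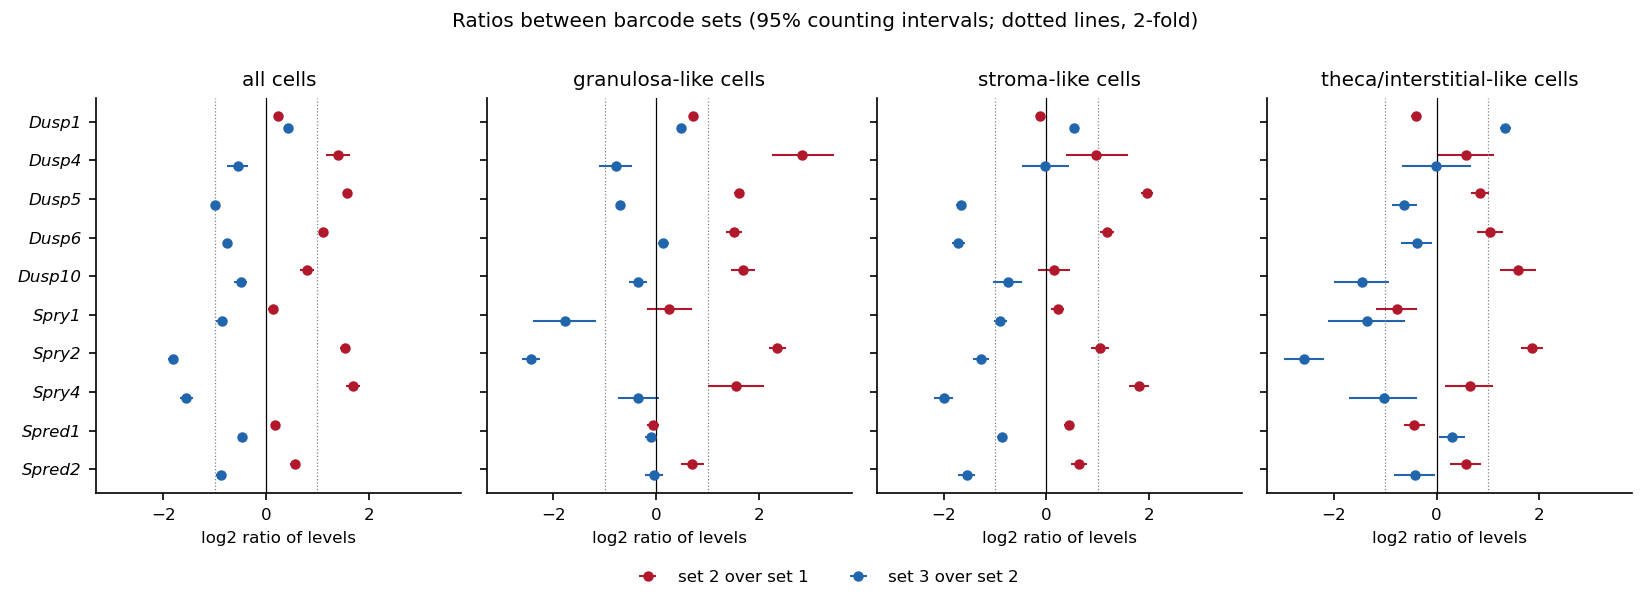
Log2 ratio of the level of each gene in set 2 over set 1 (red) and set 3 over set 2 (blue), over all cells and in the 3 largest classes, with 95% counting intervals and dotted lines at 2-fold. Red points lie at or above 0 for most genes and blue points below. *Dusp1* has blue points above 0 in all 4 panels, as do *Dusp6* in granulosa-like and *Spred1* in theca/interstitial-like cells.

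Within granulosa-like cells, 6 of the 10 genes were at least 2-fold higher in set 2 than in set 1, against 6.32% of all genes tested there. These were *Dusp4*, *Spry2*, *Dusp10* (3.22, 2.73 to 3.8), *Dusp5* (3.05, 2.84 to 3.28), *Spry4* (2.92, 2.02 to 4.30) and *Dusp6* (2.86, 2.57 to 3.18). Set 3 was at least 2-fold lower than set 2 for *Spry2* (0.185, 0.164 to 0.208) and *Spry1* (0.293, 0.191 to 0.442), 2 of the 10 against 8.1% of all genes. *Spry1* rested on 33 UMIs in set 3 and 90 in set 2, at 0.0370 and 0.0677 times the stroma-like level. Stroma-like *Spry1* was also lower in set 3 than in set 2 (0.538), and the part of free RNA in the granulosa-like *Spry1* was not tested. In comparison with set 1, set 3 was at least 2-fold higher for *Dusp4* (4.12), *Dusp6* (3.15), *Dusp10* (2.52), *Dusp1* (2.31) and *Spry4* (2.30), 5 of the 10 against 8.51% of all genes. The phosphatases other than *Dusp5* were thus above their set 1 level in set 3 by the fold of 2, whereas *Spry2* was at 0.947 times (0.813 to 1.10) that level. With a stricter marker gate, which kept 1509 of the 3936 granulosa-like cells of set 3, 2 of the 10 passed, and the share of all genes under that gate is not given here. *Dusp4* and *Spry4* then had ratios of 3.26 and 2.84 but 50 and 65 UMIs, below the minimum of 100, and *Dusp10* had 1.77.

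In stroma-like cells, 4 of the 10 genes were at least 2-fold higher in set 2 than in set 1, *Dusp5* (3.88, 3.57 to 4.23), *Spry4* (3.47, 3.02 to 4.0), *Dusp6* (2.26, 2.06 to 2.47) and *Spry2* (2.06, 1.83 to 2.32), against 2.14% of all genes. In set 3, 5 of the 10 were at least 2-fold lower than in set 2, *Spry4* (0.25), *Dusp6* (0.304), *Dusp5* (0.316), *Spred2* (0.341) and *Spry2* (0.415), against 9.28% of all genes. *Dusp1* differed little between sets 1 and 2 there, at 0.922 (0.893 to 0.952), and was 1.46 times (1.42 to 1.5) higher in set 3 than in set 2. In theca/interstitial-like cells, *Spry2* (3.61), *Dusp10* (3.01) and *Dusp6* (2.05) were at least 2-fold higher in set 2 than in set 1, 3 of the 10 against 5.47% of all genes. This class made up 10.7, 4.21 and 3.20% of sets 1, 2 and 3, and its *Inha* level was 11.1, 13.1 and 14.8, against 64.8, 63.0 and 37.0 in granulosa-like cells. Whether this *Inha* came from GCs or from the class itself, and the part of GC RNA in these ratios, was not tested. When cells were classed by clustering, 5 of the 10 genes passed in theca/interstitial-like cells, with *Dusp6* at 1.44. The share of all genes under that classing is not given here, so nothing is read from this count.

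GCs of set 2 were grouped by their UMIs of the EGF-like ligand genes *Areg* and *Ereg*. Granulosa-like cells with at least 3000 UMIs were thinned to that depth for the grouping, and levels were taken from all of their UMIs. Of these cells, 1539 had 0, 751 had 1 to 3 and 1622 had 4 or more ligand UMIs, at median depths of 7002, 6953 and 6827.5 UMIs. The share with 1 to 3 ligand UMIs was 19.2% in granulosa-like cells and 21.3% and 18.2% in endothelial-like and myeloid-like cells of set 2, at median depths of 6908.5, 5877 and 5791 UMIs. So 1 to 3 ligand UMIs do not by themselves show that a cell expressed a ligand gene. The comparison within set 2 below rests on the cells with 0 and with 4 or more. The share with 4 or more was 41.5% (39.9 to 43.0) in granulosa-like, 65.8% in theca/interstitial-like and 8.41% in stroma-like cells. It was 0.172% (0.00435 to 0.954) in endothelial-like cells and 0 of 88 in myeloid-like cells, which allows up to 3.41%. *Spry2* was at 0.434 (0.396 to 0.475), 0.619 (0.556 to 0.687) and 0.748 (0.699 to 0.80) across these cells, and *Dusp10* at 0.102 (0.0852 to 0.122), 0.180 (0.148 to 0.218) and 0.274 (0.245 to 0.306). Both were thus higher in the cells with 4 or more ligand UMIs than in those with 0, and the cells without a ligand UMI were still above the set 1 levels of 0.111 and 0.0583. *Dusp1* went the other way, with 2.11 (2.03 to 2.19), 1.77 (1.67 to 1.88) and 1.25 (1.19 to 1.31). *Dusp5* was at 1.24 (1.18 to 1.30), 1.30 (1.21 to 1.39) and 0.643 (0.60 to 0.688), lower only in the cells with most ligand UMIs. *Dusp6* was at 0.400, 0.406 and 0.417, and *Dusp4*, *Spred1*, *Spry1* and *Spry4* also had overlapping intervals throughout. *Spred2* was at 0.162, 0.223 and 0.138, and its first and last values overlapped. The LH receptor gene *Lhcgr* was at 0.198, 0.461 and 1.53 and *Inha* at 39.1, 51.8 and 91.1 in these groups of set 2, so the state of the GCs differed along with the ligands, and its part in these differences was not tested. In set 3, 278 granulosa-like cells (7.34%) had 1 to 3 ligand UMIs, against 1.78% of the endothelial-like cells, and 13 had more. The share with 1 to 3 was higher in theca/interstitial-like (30.4%) and stroma-like cells (12.7%) of set 3. Here too, 1 to 3 ligand UMIs do not by themselves show that a cell expressed a ligand gene. These 278 cells had higher *Dusp10* than the cells without, at 0.271 against 0.146, and higher *Dusp6*, at 0.607 (0.515 to 0.711) against 0.455 (0.431 to 0.479). *Dusp5* was likewise higher in them, at 0.796 against 0.603, while *Dusp1* overlapped, at 2.26 against 2.37.

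**Figure D3:**
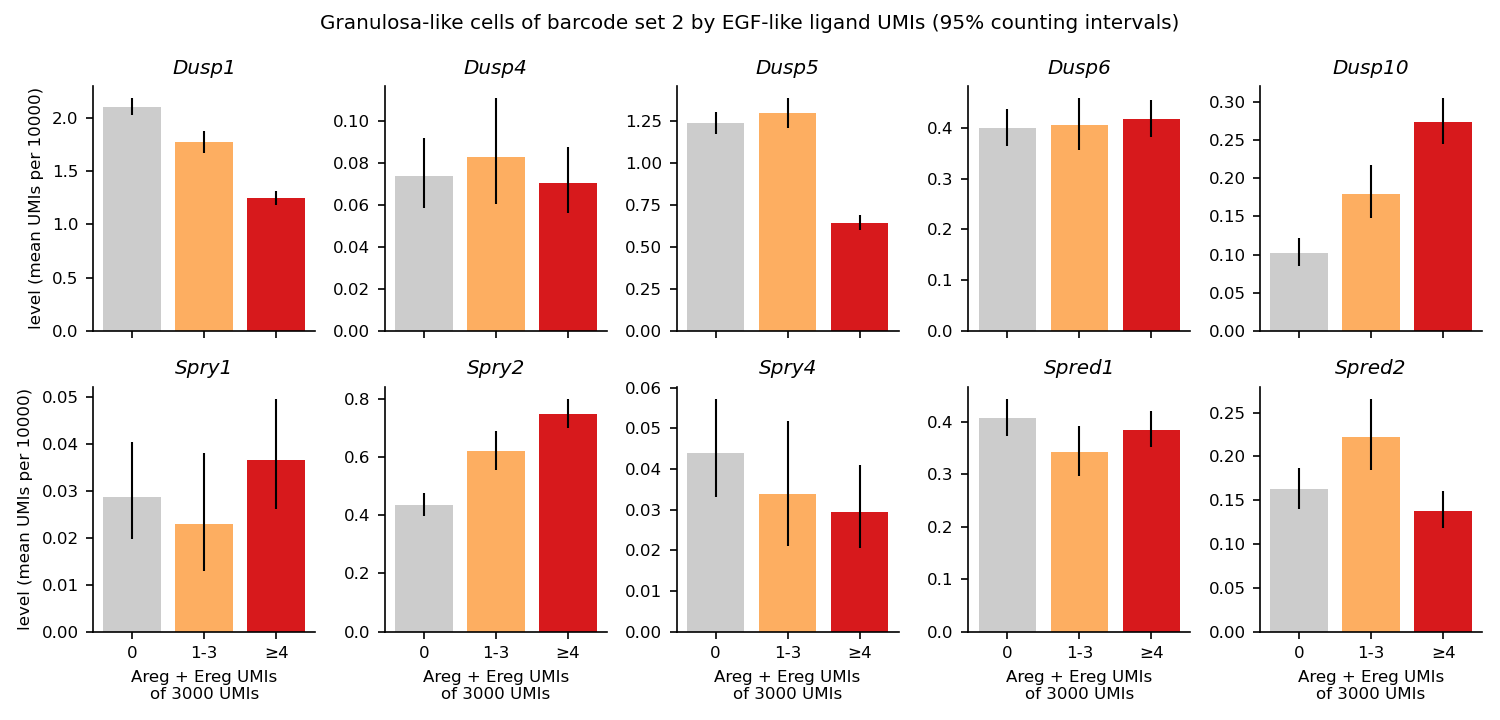
Level of each gene (mean UMIs per 10000, bars from 0, a scale of its own for each gene) in granulosa-like cells of set 2 with 0, 1 to 3 or 4 or more *Areg* and *Ereg* UMIs among 3000 UMIs, with 95% counting intervals. Bars climb from left to right for *Spry2* and *Dusp10*, descend for *Dusp1*, drop in the last group for *Dusp5* and stay level for *Dusp6*.

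Granulosa-like cells were also divided by other marker lists. Cells with at least 3 detected mitotic markers had lower *Dusp1* than the remaining cells in each set, at 0.747 against 1.09, 1.21 against 1.76 and 1.74 against 2.56, and lower *Spry2*, at 0.0754 against 0.124, 0.330 (0.288 to 0.378) against 0.629 (0.598 to 0.662) and 0.0699 against 0.121. Their median depth was 10365, 12214 and 11710 UMIs, against 5505, 6424 and 6420 UMIs in the others, and the part of depth in this was not tested. Cells with at least 3 markers of antral mural GCs had lower *Dusp5* in set 1, at 0.236 against 0.417, and in set 2, at 0.807 against 1.28, but not beyond the intervals in set 3, at 0.583 against 0.612. In set 3 the 457 cells so marked, with a median of 9349 against 6944 UMIs, had higher *Dusp6*, at 0.686 (0.616 to 0.763) against 0.430 (0.406 to 0.455). In sets 1 and 2 the *Dusp6* intervals of this split overlapped, at 0.135 against 0.157 and 0.435 against 0.389. Cells with at least 3 markers of expanding cumulus numbered 233 in set 2 and 141 in set 3. *Dusp6* was higher in them, at 0.583 (0.494 to 0.684) against 0.407 in set 2 and 0.908 (0.775 to 1.06) against 0.443 in set 3, while *Dusp1* was lower, at 1.14 against 1.73 and 1.38 against 2.41. *Spry2* did not separate in either set, with 0.580 against 0.592 and 0.140 against 0.108. The cumulus-marked cells were also the deeper ones, with medians of 9583 and 12080 UMIs.

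Genes that act around the 10 were read from lists for the same granulosa-like cells, between sets 2 and 1, where 6.32% of all genes tested were at least 2-fold higher and 20.3% at least 2-fold lower. The lists were written with earlier results of these data known, so their counts are descriptions and no independent support. Of the other MAP kinase phosphatases, 3 of the 5 tested were at least 2-fold higher in set 2, namely *Dusp8* (10.9), *Dusp16* (3.18) and *Dusp2* (3.06), and 0 were lower. Of the other feedback and Ras/ERK inhibitors, 2 of 10 were higher, *Errfi1* (11.8), which encodes an EGF receptor inhibitor, and *Rgs2* (5.88), a regulator of G protein signalling. Upstream, 7 of 13 ligands and receptors were higher and 0 lower (3 were lower at a fold of 1.5, as were 42.5% of all genes), with *Ereg* at 0.00656 in set 1 and 12.3 in set 2, *Areg* at 0.0171 and 13.0, *Btc* at 0.0387 and 1.26, and *Fgf2* at 0.0183 and 0.0674. The kinases and adaptors of the cascade itself moved less, with 2 higher and 1 lower among 20 tested and a list median log2 ratio of -0.32. The kinase gene *Rps6ka2*, which encodes a ribosomal S6 kinase activated by ERK, was among those higher (2.65). Of the ERK-induced transcription targets, 7 of 19 were higher and 0 lower, led by *Fosl1*, *Ier3* (7.18), *Egr3* (4.84) and *Junb* (4.33), *Fosl1* being at 0.000452 in set 1 and 0.0690 in set 2. The set 1 level of *Fosl1* lay below the floor, the level of 3 UMIs, which was 0.00101 there, so the size of its ratio is uncertain. The p38 and JNK list had 0 of 5 higher and 1 lower, *Mapk9* (0.433). The median log2 ratio of all genes in these cells was -0.47, and that of the 10 genes was 1.53.

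**Figure D4:**
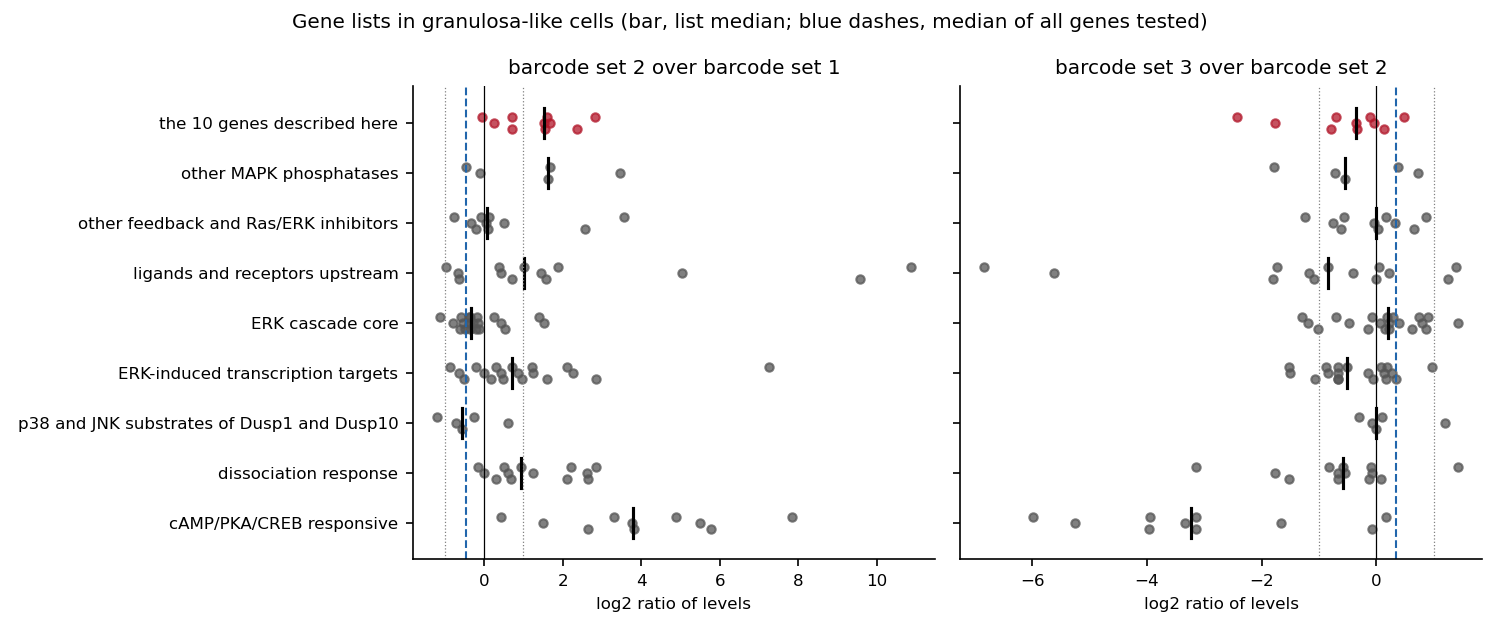
Log2 ratio of the level in granulosa-like cells, set 2 over set 1 (left) and set 3 over set 2 (right), for the 10 genes (red) and the genes of each list (grey). Each point is a gene, bars are list medians, blue dashes mark the median of all genes tested and dotted lines 2-fold. The median of the cAMP-responsive genes lies furthest to the right in the left panel and furthest to the left in the right panel, while the single genes furthest out on the left panel are the ligands *Ereg* and *Areg*.

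Genes that respond to cAMP, PKA and CREB showed larger ratios than the 10, with 9 of 10 at least 2-fold higher in set 2 than in set 1 in granulosa-like cells and a median ratio of 13.8. This list too was written with earlier results of these data known, so the size of its count and median may follow in part from that choice. *Pde10a* was at 0.0834 and 18.9, *Nr4a3* at 0.0239 and 1.08, *Crem* at 0.15 and 4.45 and *Pde4d* at 0.00867 and 0.473. In set 3, 8 of these 10 were at least 2-fold lower than in set 2, with a median ratio of 0.106, as were 2 of the 10 feedback genes and 8.1% of all genes. In stroma-like cells, 9 of the 10 cAMP-responsive genes were also at least 2-fold higher in set 2 than in set 1, with a median ratio of 5.39. In set 2 the stroma-like levels of *Areg* (2.77), *Ereg* (2.22), *Pde10a* (5.0) and *Crem* (1.15) were 21.2, 18.1, 26.5 and 25.9% of the granulosa-like levels, against 3.88% for *Inha*. In endothelial-like cells *Areg* and *Ereg* were at 3.88 and 5.03% of the granulosa-like level, against 4.0% for *Inha*. *Inha* is itself a marker of the gate, whereas *Areg* and *Ereg* are not. Also higher in the stroma-like cells of set 2 than of set 1 were *Errfi1* (6.98) and *Rgs2* (5.40). Of all genes there, 2.14% were higher and 4.13% lower by the fold. The ERK-induced targets in these cells had 3 of 18 higher, led by *Egr3* (4.93) and *Egr2* (3.13), and 2 lower, *Ccnd1* (0.458) and *Etv1* (0.491), with a median log2 ratio of 0.13.

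Genes that respond to tissue dissociation, some of which are also ERK targets, moved with the sets in the same cells. In granulosa-like cells their summed level was 50.7, 115.6 and 73.4 in sets 1, 2 and 3, and 6 of 13 were at least 2-fold higher in set 2 than in set 1, against 6.32% of all genes, led by *Ier3*, *Nr4a1* (6.23), *Atf3* (6.11) and *Btg2* (4.66). The other 7 did not pass the fold. In stroma-like cells the summed level was 123.6, 118.2 and 91.0, and 2 of the 13 passed, against 2.14% of all genes. This sum hides opposite movements between sets 1 and 2. *Fos* went from 28.4 to 16.8 and *Jun* from 28.3 to 16.9. *Btg2* went from 10.99 to 22.85 and *Nr4a1* from 1.58 to 3.35. At a fold of 1.5, 3 of the 13 were higher and 6 lower in set 2. The share of all genes at that fold is not given here. *Dusp5*, *Dusp6*, *Spry2* and *Spry4* were at least 2-fold higher in set 2 in these cells. In theca/interstitial-like cells the sum was 68.0, 114.8 and 44.1, with set 2 the highest, as for *Spry2*, *Dusp10* and *Dusp6*. In myeloid-like cells the sum was 85.3, 129.1 and 102.8, *Dusp1* being highest in set 3. Between classes, the sum of granulosa-like cells in set 1 was the lowest of the 6, as was their level of 7 of the 10 genes. In sets 2 and 3 endothelial-like cells had the lowest sum, at 60.9 and 39.8, while *Dusp1* stayed lowest in granulosa-like cells. Myeloid-like cells were the highest class for 2, 6 and 7 of the 13 dissociation genes in sets 1, 2 and 3, and for *Dusp1* throughout. Stroma-like cells were the highest class for 8, 4 and 4 of the 13, and in set 1 their sum of 123.6 was above the myeloid-like one. The part of dissociation in the levels of the 10 genes was not tested.

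The pattern over the 18 combinations of class and set was compared between genes as the correlation of log2 (level + 0.1), a description over groups that share libraries and classes. Among the 10 genes, *Spry1* and *Spry4* were most alike (r = 0.88), followed by *Spry1* and *Spred2* (r = 0.75), and *Dusp1* and *Spry2* were least alike (r = -0.62). Among all genes that reached 1 UMI per 10000 in a group, the 3 most like *Dusp1* were *Gm34455* (r = 0.96), *Cdc42* (0.95) and *Cyba* (0.94), the last a subunit of the phagocyte oxidase. The 3 most like *Dusp6* were *Tgfb1* (0.88), *Ppp2r5a* (0.85) and *Hhex* (0.83), and those most like *Spry4* were *Ebf1* (0.93), *Atp2b4* (0.91) and *Eln* (0.91), the elastin gene. The genes most like *Spred1* depended on the 90 myeloid-like cells of set 1, since all 3 were replaced when that group was left out, by *Pltp* (0.89), *Gng2* (0.87) and *Ssh2* (0.86). Of the 5 genes matched, those with at least 1 UMI per 10000 in a group, *Dusp5* had the weakest matches, *Tmem14c* (0.72), *Pde4b* (0.69) and *Coq10b* (0.67), of which *Pde4b* encodes a cAMP phosphodiesterase. With an offset of 0.5 in place of 0.1, *Kdm6b* took the place of *Coq10b* and *Tspan13* that of *Hhex*, and *Tns1* and *Mcam* those of *Atp2b4* and *Eln*. Without the 90 myeloid-like cells of set 1, *Tns1* took the place of *Eln* for *Spry4*.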

How the data were processed

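scRNA-seq of 3 mouse ovary libraries was deposited by the authors as 1 table of the natural log of 1 plus UMIs per 10000 UMIs of the cell. The submitters' processing notes name Cell Ranger, Seurat and mm10, whereas versions, annotation and cell filters are not given in the sources used here. Values were logs of whole multiples of 1 step in every cell, so UMIs were worked back, and 100% of 80167176 values came out whole within 0.01 UMI. The labels number the libraries, but no source links those numbers to the barcode endings.

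Each marker's log value was capped at its 90th percentile among cells with a UMI of it and divided by that percentile. The score of a cell for a class was the mean of these scaled values over the class markers. A cell joined the class of highest score when this was at least 0.2 and 1.5 times the next, and the theca/interstitial class also needed 2 UMIs of *Cyp17a1* and *Insl3* together. The gate was set after the cells had been viewed with levels of the 10 genes in view. Cells near the gate (within 0.05 of the score or 0.2 of the ratio) numbered 1763 of the granulosa-like, 493 of the stroma-like, 47 of the theca/interstitial-like, 101 of the mural, 32 of the endothelial-like and 34 of the myeloid-like cells. The 10 genes and all lists were chosen with earlier results of these data known. Named genes were the 10, up to 4 genes of a list past the fold of 2 by size of the ratio, the 3 most alike in pattern, and markers beside a result they touch.

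Intervals of ratios are exact conditional binomial intervals and those of shares exact Clopper-Pearson intervals, and the level of 3 counts was taken as the floor. Doublets were not removed, because Scrublet marked 18, 16 and 9 cells of sets 1, 2 and 3, under 0.5% of all. Intervals and calls were checked on simulated Poisson counts, with gene shares from granulosa-like cells of set 1 that were the same in every cell of a group. The intervals assume just this, so the check does not cover differences between cells or the small classes. Alternatives were pooled sums, mean log values, totals without the 50 most abundant genes, cells of at least 2000 UMIs, removal of the 8% of cells with the highest Scrublet score, 2 other gates, Louvain clusters (2000 variable genes, 30 components, 15 neighbours), a fold of 1.5, a minimum of 30 UMIs, other thinning depths and, for the patterns, an offset of 0.5 and groups of at least 100 cells. Tools were python 3.11.15, numpy 2.4.6, scipy 1.17.1, igraph 0.11.9, scanpy 1.11.5 and matplotlib 3.10.9. Protein sequences were not used here. Some genes that the naming rule would give are not reported here.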

Additional observations from a re-analysis of the deposited data

Results flagged for a closer look

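In 12 of the 30 combinations of gene and pair of barcode sets, the counting intervals of the ratio lay above 1 in at least 1 class and below 1 in at least 1 other. This is a counting rule that abundant genes meet often. It was met by 3 of the 10 genes for set 2 over set 1, 4 for set 3 over set 2 and 5 for set 3 over set 1. Among all genes whose UMIs over the classes lay within the range of the 10, it was met by 19.9, 31.4 and 26.9%, and nothing particular to the 10 genes is read from these counts. With 1 library per time point the differences between classes were not tested, and for each the highest and lowest ratios are given among the classes whose interval did not include 1. For set 2 over set 1, *Dusp1* had a ratio of 1.65 in granulosa-like and 0.753 in theca/interstitial-like cells, the latter being 1.02 with Louvain clusters. Stroma-like cells, the other class with a lower *Dusp1*, went from 0.922 to 1.00226 with pooled sums. *Spry1* had 1.17 in stroma-like and 0.588 in theca/interstitial-like cells, and *Spred1* had 1.91 in myeloid-like and 0.741 in theca/interstitial-like cells.

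For set 3 over set 2, *Dusp1* had a ratio of 2.52 in theca/interstitial-like and 0.807 in endothelial-like cells. *Dusp5* had 3.17 in myeloid-like and 0.316 in stroma-like cells, and *Dusp6* had 1.10 in granulosa-like and 0.304 in stroma-like cells. *Spred1* had 1.23 in theca/interstitial-like and 0.551 in stroma-like cells. For the last 2 genes only the class named first lay above 1, and it turned under an alternative, to 0.923 for *Dusp6* with the stricter gate and to 0.907 for *Spred1* with Louvain clusters.

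For set 3 over set 1, *Dusp6* had a ratio of 3.15 in granulosa-like and 0.618 in endothelial-like cells, *Dusp10* had 2.52 in granulosa-like and 0.654 in stroma-like cells, and *Spred2* had 1.58 in granulosa-like and 0.528 in stroma-like cells. *Dusp1* had 2.31 in granulosa-like and 0.891 in endothelial-like cells, and *Spred1* had 1.80 in myeloid-like and 0.747 in stroma-like cells.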

How the results depend on the processing

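Among the recomputed counts of genes past a threshold, 108 stayed within 1.5 times the reported count and 9 did not. Among the recomputed ratios, 1417 stayed within their counting interval, 113 left it in the same direction and 5 turned. Levels and shares left their intervals in 452 and 287 of the recomputed values, which include other scales and thinning depths. *Dusp1* in stroma-like cells, set 2 over set 1, went from 0.922 to 1.00226 with pooled sums and to 1.03 with mean log values. *Dusp6* in granulosa-like cells, set 3 over set 2, went from 1.10 to 0.923 with the stricter gate. In theca/interstitial-like cells classed by Louvain clustering, *Dusp1*, set 2 over set 1, went from 0.753 to 1.02 and *Spred1*, set 3 over set 2, from 1.23 to 0.907. The cause of these turns was not tested. In granulosa-like cells, the genes at least 2-fold higher in set 3 than in set 1 numbered 2 in place of 5 with the stricter gate, where *Dusp4* and *Spry4* fell under the minimum of UMIs. Genes lowest in granulosa-like cells of set 3 numbered 1 in place of 2 with mean log values. Genes higher in set 2 than in set 1 in theca/interstitial-like cells numbered 5 in place of 3 with Louvain clusters. For the counts under the stricter gate, mean log values and Louvain clusters, the share of all genes is not given here, and nothing is read from them. With a fold of 1.5, the genes lower in set 3 than in set 2 numbered 6 over all cells (18.8% of all genes), 4 in granulosa-like (14.6%) and 8 in stroma-like cells (20.05%). Those higher or lower in set 3 than in set 1 over all cells then numbered 2 (13.3%) and 1 (26.3%), and those higher in set 2 than in set 1 in theca/interstitial-like cells 5 (8.58%). No mural cluster was found in set 3, so its values could not be recomputed that way. No paired analysis was possible because each time point has 1 library. At a median of 6093 to 6524 UMIs per cell, low genes are missed in many cells that express them.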
